A study of Drosophila melanogaster with 12 samples.

Results

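The hemocyte genes examined here were srp, gcm, gcm2, ush, Hml, PPO1, NimC1, He, crq and Pvr, chosen by name as blood cell genes that do not encode extracellular matrix. The choice was made with earlier results of these data known. Each had exactly 1 probe set annotated with that gene alone, so 10 probe sets of the 18769 tested on the array make up the set. 4 are lineage factors (srp, gcm, gcm2 and ush), which act in the choice of blood cell fate, and 6 are differentiation genes (Hml, PPO1, NimC1, He, crq and Pvr). They were measured in total RNA of GFP-positive mesodermal cells sorted from embryos of Drosophila melanogaster between late stage 11 and early stage 12, on 12 single-colour arrays in 4 groups of 3. The Slou gain-of-function embryos carried twi-gal4, UAS-GFP and UAS-S59, and wild type set 1 carried twi-gal4 and UAS-GFP. The Msh gain-of-function embryos carried twi-gal4, UAS-GFP and UAS-msh, and wild type set 2 had the same genotype as wild type set 1. All 4 groups thus shared the twi-gal4 driver and GFP, and the driver is active where Twist is expressed, which is not limited to blood cell precursors.

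Embryonic blood cells of the fly arise from the head mesoderm and then spread through the embryo. Most become plasmatocytes, which engulf dead cells and secrete matrix, and a minority become crystal cells, which store prophenoloxidase for melanization. The GATA factor Serpent (srp) is needed for blood cell fate, Glial cells missing and its paralog (gcm and gcm2) promote plasmatocyte fate, and the Friend-of-GATA protein U-shaped (ush) restrains crystal cell fate. Outside blood, srp acts in the fat body, ush in the amnioserosa and gcm in lateral glia.

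Values are the deposited log2 expression values, and differences are gain of function minus wild type on that log2 scale. Arrays of Slou and wild type set 1 had medians of 2.59 to 2.72, and arrays of Msh and wild type set 2 had medians of 3.85 to 3.91, so each gain of function was compared with the wild-type set on its own scale and levels were not set against each other across scales. A change was called at a limma p under 0.05 after Benjamini-Hochberg adjustment over all 18769 probe sets. The labels do not state that the 3 arrays of each group are separate collections of embryos, so p-values measure only array-to-array spread, possibly technical. That spread depended on the level: in wild type set 1 the median SD was 1.22 where probe sets averaged below 2 and 0.0479 where they averaged above 8. Of 9 genes asked for as a check of the sorted tissue, 5 were measured, and these mesodermal genes (twi, bap, htl, sns and kirre) averaged 5.81 to 7.59 in Slou, 5.76 to 7.10 in wild type set 1, 7.62 to 9.89 in Msh and 7.38 to 9.86 in wild type set 2. Genes of other tissues were also high. In wild type sets 1 and 2 the neuronal genes elav and nerfin-1 averaged 9.07 and 10.96, and 8.10 and 10.46. The epidermal genes grh and crb averaged 6.40 and 9.24, and 5.88 and 9.02. The mesodermal levels thus do not show how pure the sort was. The slou probe set was 5.48 higher in Slou than in wild type set 1 (SE 0.11, limma adjusted p = 0.00152). The probe set of Dr, the gene of Msh, averaged 9.36 ± 0.02 in Msh and 9.03 ± 0.23 in wild type set 2 (SD, n = 3 each), a difference of 0.32 that did not pass (limma adjusted p = 0.254), so the overexpression in the arrays labelled Msh rests on the labels.

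**Figure D1:**
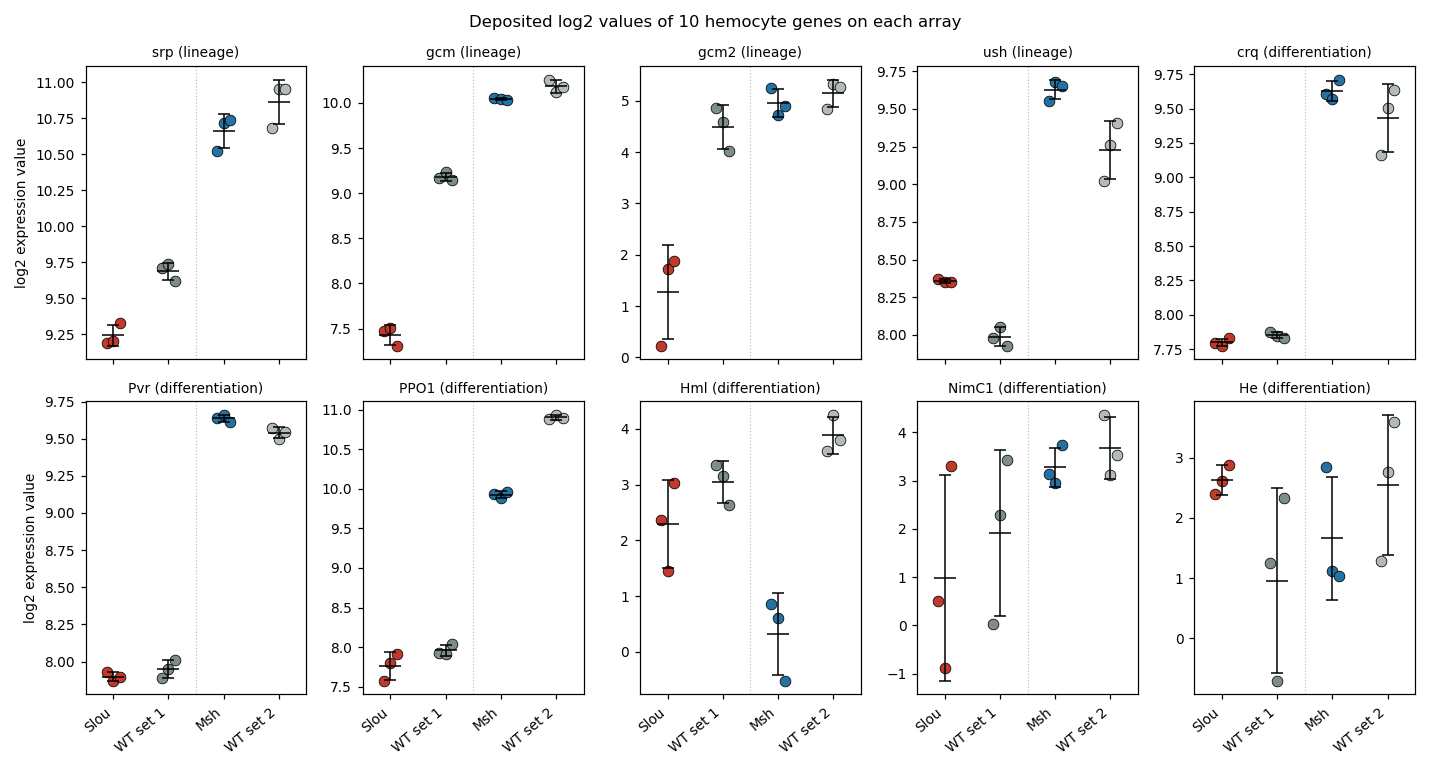
Deposited log2 value (vertical axis, a separate range in each panel) of each of the 10 hemocyte genes on each array, with the mean and SD of 3 arrays as bars; groups run Slou, wild type set 1, Msh, wild type set 2, and a dotted line parts the 2 scales. The Slou points of gcm and gcm2 lie below all wild type set 1 points, and the Msh points of Hml and PPO1 lie below all wild type set 2 points, while NimC1 and He scatter widely.

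In Slou, gcm was the 1 hemocyte gene of 10 that was called, and it fell, against 1.08% of all probe sets called lower and 2.31% called in either direction. The other 3 lineage factors and all 6 differentiation genes did not pass. At an unadjusted limma p under 0.05 there were 4 lineage factors and 0 differentiation genes, against 15.1% of all probe sets. The median difference was -1.10 over the 4 lineage factors and -0.12 over the 6 differentiation genes, against -0.01 over all probe sets. The 3 Slou values lay wholly to 1 side of the 3 wild-type values for 6 of the 10 genes, which included all 4 lineage factors and, of the differentiation genes, He and crq. Of all probe sets, 25.3% were separated in this way.

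The transcription factor gene gcm had log2 values of 7.48, 7.51 and 7.31 in the Slou arrays, against 9.17, 9.23 and 9.15 in the arrays of wild type set 1. The groups were far apart and each was tight. The mean was 7.43 ± 0.11 in Slou and 9.18 ± 0.04 in wild type set 1 (SD, n = 3 each), so gcm fell by 1.75 (SE 0.11, limma adjusted p = 0.00814), which is 3.37-fold lower on a linear scale. The size changed little when any 1 of the 6 arrays was left out, with differences of -1.79 to -1.69, but the adjusted p then rose just past the threshold, to 0.0504 without Slou replicate C, 0.0516 without Slou A, 0.0580 without Slou B, 0.0531 without wild type set 1 A, 0.0542 without B and 0.0513 without C. In bulk RNA of sorted cells, fewer cells of a type and less RNA per cell cannot be told apart.

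The paralog gcm2, which encodes a protein with the same kind of DNA-binding domain, had values of 0.22, 1.72 and 1.87 in Slou and 4.86, 4.59 and 4.02 in wild type set 1. All 3 Slou arrays were below all 3 wild-type arrays, and the Slou values lay where arrays of 1 group scatter most. The difference was -3.22 (SE 0.53, 95% interval -4.59 to -1.84), and it did not pass (limma adjusted p = 0.0637). It passed when all 12 arrays shared 1 estimate of the spread, at the same size (SE 0.42, limma adjusted p = 0.00151). Over 7 alternative settings gcm2 passed in 5. It missed with quantile normalization within the scale and with the replicate letter as a block (limma adjusted p = 0.0632 and 0.329). Leaving out any 1 of the 6 arrays gave differences of -3.52 to -2.69, and gcm2 passed in 0 of these fits (limma adjusted p = 0.0792 to 0.190).

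The GATA factor gene srp had values of 9.19, 9.21 and 9.33 in Slou and 9.71, 9.74 and 9.62 in wild type set 1. The groups did not overlap, but the difference was small, at -0.45 (SE 0.10, 95% interval -0.71 to -0.18), and did not pass (limma adjusted p = 0.131). The cofactor gene ush had values of 8.37, 8.35 and 8.35 in Slou and 7.98, 8.05 and 7.93 in wild type set 1. It was higher in all 3 Slou arrays, by 0.37 (SE 0.09, 95% interval 0.13 to 0.61), and did not pass either (limma adjusted p = 0.165). With an intensity trend in the spread, srp and ush passed at these sizes (limma adjusted p = 1.26e-08 and 2.57e-06). With 12 arrays in 1 fit srp passed (0.0297) and ush did not (0.0607). Over 7 alternative settings srp passed in 3 and ush in 4. Neither passed with the replicate letter as a block (limma adjusted p = 0.440 and 0.461). Without any 1 of the 6 arrays neither passed (limma adjusted p = 0.243 to 0.317 for srp and 0.272 to 0.352 for ush). Against both wild-type sets, after quantile normalization, srp had a difference of -0.11 (limma adjusted p = 0.491).

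Among the differentiation genes, crq and Pvr had narrow intervals around 0 in Slou. The gene crq, which encodes a CD36-family receptor for dead cells, had values of 7.79, 7.78 and 7.83 in Slou and 7.87, 7.85 and 7.83 in wild type set 1, a difference of -0.05 (95% interval -0.28 to 0.18). Its groups were separate only in the third decimal of the closest values. The gene Pvr, whose product is a receptor for PDGF- and VEGF-like ligands that blood cells use for survival and migration, had values of 7.93, 7.87 and 7.90 in Slou and 7.89, 7.95 and 8.01 in wild type set 1, a difference of -0.05 (95% interval -0.30 to 0.19). PPO1, a prophenoloxidase of crystal cells, had values of 7.57, 7.81 and 7.91 in Slou and 7.93, 7.91 and 8.04 in wild type set 1, which overlapped (difference -0.20, 95% interval -0.54 to 0.14).

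Hml, He and NimC1 were low on these arrays, and their intervals were wide. Hml, the gene of the clotting protein Hemolectin, had values of 2.37, 1.45 and 3.03 in Slou and 3.36, 3.15 and 2.63 in wild type set 1, with a difference of -0.76 (95% interval -1.96 to 0.43). He, the gene of the blood cell surface protein Hemese, had values of 2.39, 2.62 and 2.88 in Slou and 1.25, -0.71 and 2.32 in wild type set 1. The groups of He did not overlap, yet its difference of 1.68 had an interval of -0.43 to 3.78. NimC1, the gene of a phagocytosis receptor, had values of 0.51, -0.88 and 3.31 in Slou and 0.03, 2.29 and 3.42 in wild type set 1. For NimC1 the 95% interval of the difference was -4.63 to 2.76, so changes of several log2 units either way could not be detected.

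Glial and neuronal genes were examined beside gcm, since gcm is also a factor of glia. Of 7 glial genes measured, 0 rose, 0 fell and 7 did not pass by limma in Slou. At an unadjusted limma p under 0.05 there were 3, against 15.1% of all probe sets. The 7 genes had a median difference of -0.43 in Slou, against -0.01 over all probe sets. Their unlogged values summed to 961 to 1005 on the Slou arrays and 1053 to 1082 on those of wild type set 1, and 0 of the 7 averaged below 2 in either group. The sum was mostly moody, which averaged 9.33 in Slou and 9.32 in wild type set 1. The 3 genes with an unadjusted limma p under 0.05 were repo, Gli and nrv2. They were lower in Slou without overlap, by differences of -0.77, -0.43 and -0.37. Of all probe sets, 25.3% did not overlap between these groups. The gene repo, a glial homeobox target of gcm, averaged 3.62 in Slou and 4.39 in wild type set 1 (limma adjusted p = 0.286). Of 4 neuronal genes 2 fell, nerfin-1 and pros, against 1.08% of all probe sets called lower. The 4 summed to 531 to 606 on the Slou arrays and 987 to 1055 on the wild-type arrays, with 0 averaging below 2. The spiked poly-A control transcripts averaged 6.0 ± 0.09 in Slou and 6.66 ± 0.04 in wild type set 1 (SD, n = 3 each). The part of these in the gcm difference was not tested.

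**Figure D2:**
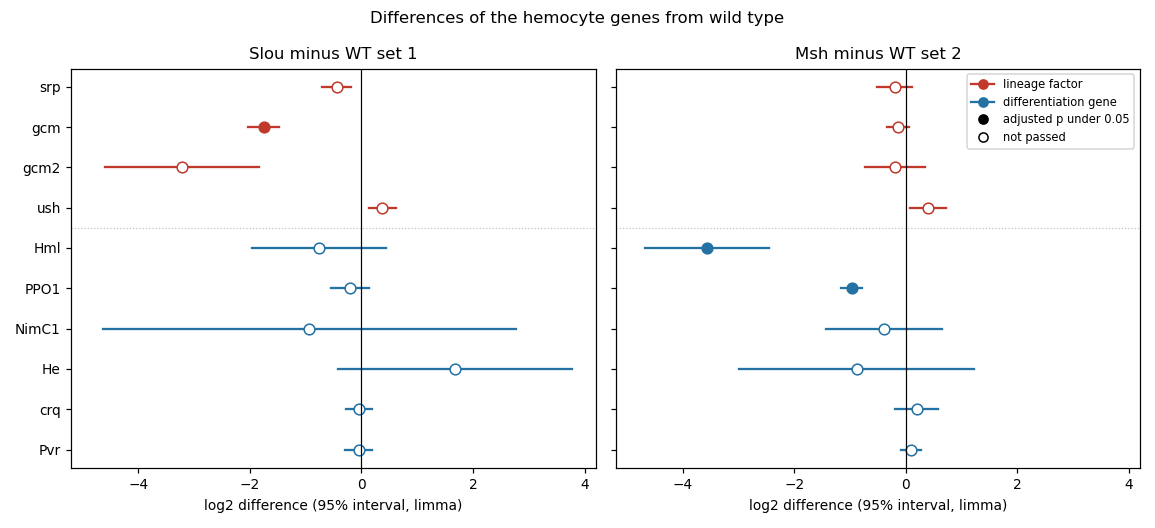
Difference from wild type on the log2 scale (horizontal axis) for each hemocyte gene, Slou minus wild type set 1 on the left and Msh minus wild type set 2 on the right; bars are 95% intervals from limma, and filled points passed at an adjusted p under 0.05. In Slou gcm alone is filled, at -1.75, and in Msh Hml and PPO1 are, at -3.57 and -0.97, while the bars of srp, gcm and gcm2 in Msh cross 0.

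In Msh, 2 of the 10 hemocyte genes were called, the differentiation genes Hml and PPO1, and both fell, against 3.95% of all probe sets called lower and 6.81% called in either direction. None of the 4 lineage factors passed by limma at the adjusted threshold, and 1 of them, ush, had an unadjusted p under 0.05, as did 22.8% of all probe sets. The median difference was -0.17 over the 4 lineage factors and -0.64 over the 6 differentiation genes, against 0.02 over all probe sets. The groups did not overlap for 5 of the 10 genes (gcm, ush, Hml, PPO1 and Pvr), against 32.8% of all probe sets.

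Hml had values of 0.86, 0.61 and -0.53 in the Msh arrays and 3.60, 4.25 and 3.79 in the arrays of wild type set 2. The groups were more than 2 log2 units apart, and the Msh values lay below 2, where arrays of 1 group scatter most. The mean was 0.31 ± 0.74 in Msh and 3.88 ± 0.34 in wild type set 2 (SD, n = 3 each), so Hml fell by 3.57 (SE 0.43, limma adjusted p = 0.0202). No fold is given, since the Msh values may lie at the floor of the array, where a log2 difference does not measure the size of a change. The median SD between Msh arrays was 1.09 for probe sets averaging below 2. Leaving out any 1 of the 6 arrays gave differences of -3.84 to -3.15 and lifted the adjusted p past the threshold: it was 0.0739, 0.0886 and 0.0528 without Msh A, B and C, and 0.0544, 0.0759 and 0.0744 without wild type set 2 A, B and C.

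PPO1 had values of 9.93, 9.88 and 9.97 in Msh and 10.88, 10.94 and 10.89 in wild type set 2. Both groups were tight and did not overlap. The mean was 9.93 ± 0.04 in Msh and 10.90 ± 0.03 in wild type set 2 (SD, n = 3 each), so PPO1 fell by 0.97 (SE 0.07, limma adjusted p = 0.00797), or 1.96-fold. The adjusted p passed the threshold without wild type set 2 A, B or C (0.0315, 0.0427 and 0.0431) and missed it without Msh A, B or C (0.0608, 0.0625 and 0.0593). This fall was not seen against wild type set 1, as described below.

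The lineage factors lay close to wild type set 2 in Msh. The srp probe set had 10.52, 10.71 and 10.74 in Msh and 10.69, 10.96 and 10.95 in wild type set 2, a difference of -0.20 (95% interval -0.52 to 0.11). The gcm probe set had 10.06, 10.04 and 10.03 in Msh and 10.26, 10.12 and 10.17 in wild type set 2. All 3 Msh values of gcm were lower, but the difference of -0.14 had an interval of -0.33 to 0.06. The gcm2 probe set had 5.25, 4.73 and 4.90 in Msh and 4.85, 5.33 and 5.28 in wild type set 2, which overlapped (difference -0.19, 95% interval -0.73 to 0.34). The ush probe set had 9.56, 9.68 and 9.65 in Msh and 9.02, 9.26 and 9.41 in wild type set 2. It was higher in all 3 Msh arrays, by 0.40 (SE 0.13, 95% interval 0.08 to 0.73), and did not pass (limma adjusted p = 0.147). It passed with 12 arrays in 1 fit (0.0415) and with an intensity trend (0.00330, both limma adjusted p).

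The receptors crq and Pvr differed little from wild type in Msh as well. The crq values were 9.61, 9.57 and 9.71 in Msh and 9.16, 9.50 and 9.63 in wild type set 2, with a difference of 0.20 (95% interval -0.19 to 0.58). The Pvr values were 9.64, 9.66 and 9.61 in Msh and 9.57, 9.50 and 9.55 in wild type set 2. They did not overlap, with a difference of 0.10 (95% interval -0.08 to 0.28). NimC1 had 3.13, 2.96 and 3.73 in Msh and 4.37, 3.12 and 3.53 in wild type set 2 (difference -0.40, 95% interval -1.43 to 0.64). He had 2.84, 1.12 and 1.03 in Msh and 1.29, 2.77 and 3.59 in wild type set 2 (difference -0.88, 95% interval -2.99 to 1.22), and its arrays overlapped widely.

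Markers of epidermis also moved with the Msh group. Of 4 epidermal genes 3 rose, against 2.86% of all probe sets called higher. The unlogged values of the 4 summed to 2459 to 2546 on the Msh arrays and 1521 to 1735 on those of wild type set 2, and 0 averaged below 2. Of 5 fat body genes measured, 1 rose and 1 fell, against 2.86% and 3.95% of all probe sets. The 5 summed to 563 to 611 in Msh and 897 to 1031 in wild type set 2, and 1 averaged below 2 in each group. The wild-type sum was mostly apolpp, which fell, with means of 7.91 in Msh and 9.24 in wild type set 2. FASN1 rose by 0.94 (limma adjusted p = 0.0409). The 3' minus 5' difference of the actin control probe sets was 1.74 ± 0.07 in Msh and 1.10 ± 0.12 in wild type set 2 (SD, n = 3 each), and the poly-A controls averaged 9.05 ± 0.14 in Msh and 10.71 ± 0.45 in wild type set 2 (SD, n = 3 each). Their part in the Hml and PPO1 differences was not tested.

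The Slou effect and the Msh effect were compared directly in a fit of all 12 arrays, in which 9.22% of all probe sets passed. Of the hemocyte genes, 4 of 10 passed: gcm and gcm2 were lower in the Slou effect, and Hml and PPO1 were lower in the Msh effect. The Slou effect minus the Msh effect was -1.61 for gcm (SE 0.11, limma adjusted p = 6.74e-05) and -3.03 for gcm2 (SE 0.60, limma adjusted p = 0.0144). It was 2.81 for Hml (SE 0.66, limma adjusted p = 0.0303) and 0.78 for PPO1 (SE 0.14, limma adjusted p = 0.00858). For gcm, gcm2 and PPO1 the call held without any 1 of the 12 arrays, whereas Hml passed in 3 of those 12 fits (without wild type set 1 A, Slou B or Msh A, at adjusted p = 0.0475, 0.0171 and 0.0405) and missed in the other 9, with adjusted p of 0.0503 to 0.0743. Hml also missed after quantile normalization of the 12 arrays (2.43, limma adjusted p = 0.0637) and with an intensity trend (0.0909). Leaving out an array keeps a different wild-type set under each effect, and those sets differed, as described below. Quantile-normalized means in Slou and Msh were 8.36 and 9.13 for gcm, with 10.09 and 9.28 in wild type sets 1 and 2. For PPO1 they were 8.69 in Slou and 9.01 in Msh, so Slou was the lower although the effect difference was positive. For ush, which lay above the wild-type set of the same scale in both gains of function without passing in either, the effects differed by -0.03 (95% interval -0.36 to 0.30).

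Of the other hemocyte genes, a set of plasmatocyte genes that includes matrix genes moved in both directions. Of 23 measured, 2 rose, 5 fell and 16 did not pass in Slou, where 1.24% of all probe sets were called higher and 1.08% lower. In Msh 1 rose, 5 fell and 17 did not pass, where 2.86% of all probe sets were called higher and 3.95% lower. The median difference was 0.01 in Slou and -0.08 in Msh, against -0.01 and 0.02 over all probe sets. The collagen IV chains Col4a1 and vkg had the smallest p in either comparison: Col4a1 averaged 5.62 in Slou and 8.24 in wild type set 1, and 7.57 in Msh and 10.14 in wild type set 2. In Slou the risers were the matrix genes SPARC, by 1.12 (SE 0.09), and Pxn, by 1.08 (SE 0.09, limma adjusted p = 0.0146 and 0.0151). In Msh the integrin ligand Tig fell by 1.25 (SE 0.10) and Glt, a secreted adhesion protein, by 0.91 (SE 0.09, limma adjusted p = 0.00998 and 0.0154). Both also fell in Slou, with differences of -1.04 for Tig and -1.82 for Glt (limma adjusted p = 0.0256 and 0.0252). SPARC, which rose in Slou, fell in Msh (-0.43, limma adjusted p = 0.0421), and Pxn did not pass there (0.13, limma adjusted p = 0.357). NimC4, the gene of a receptor through which plasmatocytes take up dead cells, was singled out after its value was seen. It fell by 1.04 in Slou (SE 0.09, limma adjusted p = 0.0159) and had a difference of -0.33 in Msh (limma adjusted p = 0.0833). Also picked with its value known, Sr-CII was the riser in Msh, by 0.54 (SE 0.09, limma adjusted p = 0.0388). Its difference in Slou was -0.16 (limma adjusted p = 0.649). Apart from NimC4 and Sr-CII, the genes called in this list were the matrix or secreted genes named above.

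Of the crystal cell genes besides PPO1, 6 were measured: 0 passed in Slou by limma (PPO2 and Men had unadjusted p of 0.0163 and 0.00295), while 1 rose and 2 fell in Msh. The shares of all probe sets called in Msh were 2.86% higher and 3.95% lower. PPO2, a second prophenoloxidase of crystal cells, had 9.15, 9.16 and 9.01 in Msh and 11.72, 11.68 and 11.63 in wild type set 2. It fell by 2.57 (SE 0.08, limma adjusted p = 0.00186). Its Slou arrays had 9.69, 9.69 and 9.75, against 9.36, 9.43 and 9.32 in wild type set 1, and the effects of Slou and Msh differed by 2.91 (SE 0.11, limma adjusted p = 4.21e-06). Men, the malic enzyme gene, fell by 0.61 in Msh (SE 0.08, limma adjusted p = 0.0227), and peb, a zinc-finger factor, rose by 0.58 (SE 0.07, limma adjusted p = 0.0202). The difference between the effects of Slou and Msh passed for peb (-0.41, limma adjusted p = 0.0431) and not for Men (-0.10, limma adjusted p = 0.780). The crystal cell factor gene lz averaged 4.77 in Msh and 3.34 in wild type set 2, and 1.77 in Slou and 2.61 in wild type set 1, and did not pass in either.

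Ligands of Pvr and the other GATA factors did not pass. Of the 4 measured genes of the Pvr list, 0 passed in Slou or Msh by limma, with 2 at an unadjusted p under 0.05 in Slou and 3 in Msh. The shares of all probe sets at that unadjusted threshold were 15.1% in Slou and 22.8% in Msh. Pvf2, a ligand, averaged 4.28 in Slou and 1.65 in wild type set 1, a difference of 2.64 with an SE of 0.78 (limma adjusted p = 0.221). It averaged 4.97 in Msh and 4.24 in wild type set 2 (limma adjusted p = 0.0955). The ligands Pvf1 and Pvf3 had differences of 0.73 and 0.82 in Slou, and 0.33 and 0.62 in Msh. Pvf1, Pvf2 and Pvf3 were higher without overlap in Slou and in Msh, where 25.3% and 32.8% of all probe sets did not overlap. Ced-12 had differences of -0.05 and -0.02. Of the 4 other GATA factor genes, 0 passed by limma in either comparison, with 2 at an unadjusted p under 0.05 in Slou and 0 in Msh. The GATA gene grn came nearest, with a mean of 5.68 in Slou and 4.78 in wild type set 1 (difference 0.90, limma adjusted p = 0.0551).

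Genes of the other tissues in which srp and ush act, and of neighbouring mesoderm, were counted in the same way. The shares of all probe sets to set beside these counts were 1.24% called higher and 1.08% lower in Slou, and 2.86% and 3.95% in Msh. At an unadjusted limma p under 0.05 the shares were 15.1% in Slou and 22.8% in Msh. Of 5 fat body genes 2 fell in Slou, where the 5 summed to 61.5 to 68.4 on unlogged values, against 220 to 241 in wild type set 1, and 3 averaged below 2 in Slou and 2 in wild type set 1. The wild-type sum was mostly apolpp, which averaged 4.52 in Slou and 7.29 in wild type set 1. The other gene that fell was svp, with means of 4.93 and 5.91. Of 4 amnioserosa genes 1 fell in Slou, Ance, with list sums of 189 to 224 in Slou and 718 to 779 in wild type set 1, and 2 averaged below 2 in each group. In Msh 0 of these 4 passed by limma, with 1 at an unadjusted p under 0.05. Of 9 cardiac and lymph gland genes 4 fell in Slou and 2 in Msh. Their sums were 365 to 420 in Slou and 635 to 666 in wild type set 1, and 2102 to 2160 in Msh and 2163 to 2347 in wild type set 2. Of 5 midgut endoderm genes 0 passed by limma in either comparison, with 2 at an unadjusted p under 0.05 in each. Of the 5 mesodermal genes used as a check, 1 rose in Slou (sns) and 1 in Msh (twi). In Msh 0 of 7 glial genes passed by limma (3 at an unadjusted p under 0.05) and 1 of 4 neuronal genes fell. In Slou 0 of 4 epidermal genes passed by limma (0 at an unadjusted p under 0.05). The amnioserosa sum was mostly Ance, which averaged 7.30 in Slou and 9.43 in wild type set 1, and of the other 3 genes zen had a difference of 1.43, tup of -0.22 and C15 of -0.61, none of which passed. The summed levels of fat body and cardiac genes and the level of Ance were lower in Slou without overlap, and their part in the hemocyte gene differences was not tested.

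**Figure D3:**
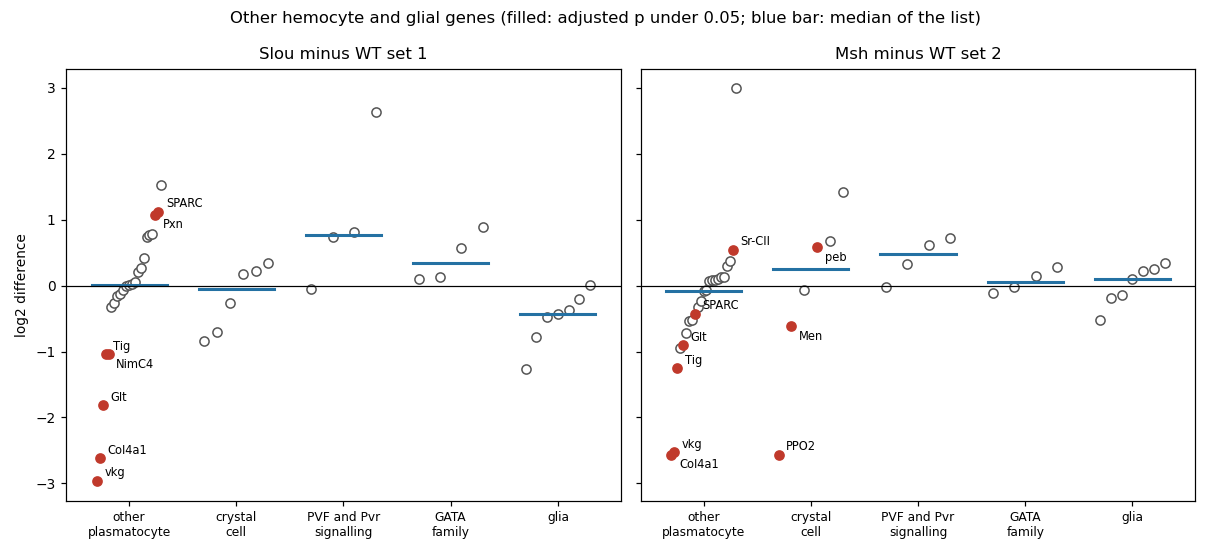
Difference from wild type on the log2 scale (vertical axis) of each measured gene of 5 lists, Slou minus wild type set 1 on the left and Msh minus wild type set 2 on the right; each point is a gene, filled where the adjusted p was under 0.05, and the blue bar is the list's median. Col4a1 and vkg lie lowest among plasmatocyte genes in both panels, PPO2 lies at -2.57 in Msh, and no glial, GATA or Pvr pathway point is filled.

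The 2 wild-type sets have the same labelled genotype, so the hemocyte genes were also set against the other set after quantile normalization of all 12 arrays. This comparison crosses the 2 deposited scales. Between the wild-type sets themselves 17.2% of probe sets passed. PPO1 was 1.14 higher in wild type set 2 than in wild type set 1 (SE 0.10, limma adjusted p = 0.000166), and srp, gcm, ush and Pvr were lower in set 2, by differences of -0.58, -0.81, -0.60 and -0.24 (limma adjusted p = 0.00438, 0.000305, 0.00476 and 0.0403).

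The fall of gcm in Slou and that of Hml in Msh were seen against either set. Slou minus wild type set 2 was -0.92 for gcm (SE 0.08, limma adjusted p = 7.56e-05), smaller than the difference from set 1, and -2.52 for gcm2 (SE 0.42, limma adjusted p = 0.00300). Msh minus wild type set 1 was -3.87 for Hml (SE 0.49, limma adjusted p = 0.000585). The fall of PPO1 in Msh was not seen against set 1: its quantile-normalized mean was 9.01 in Msh, 8.87 in wild type set 1 and 10.01 in wild type set 2, a difference of 0.14 from set 1 that did not pass (limma adjusted p = 0.373). Against both sets together PPO1 had a difference of -0.43 in Msh (limma adjusted p = 0.00777). In Slou, where PPO1 did not pass against wild type set 1, it was lower than wild type set 2 by a difference of -1.32 (SE 0.10, limma adjusted p = 2.98e-05). PPO2 was also lower in Msh against wild type set 1, at -2.08 (SE 0.08, limma adjusted p = 1.06e-06).

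The other lineage factors also depended on the set. In Slou, ush was 0.97 above wild type set 2 (SE 0.10, limma adjusted p = 0.000250), whereas srp had a difference of 0.18 (limma adjusted p = 0.259), opposite in sign to that from set 1. In Msh, srp and gcm had differences of -0.80 and -0.96 from wild type set 1 (limma adjusted p = 0.000543 and 8.65e-05), and ush had a difference of -0.18 (limma adjusted p = 0.278), also opposite in sign.

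**Figure D4:**
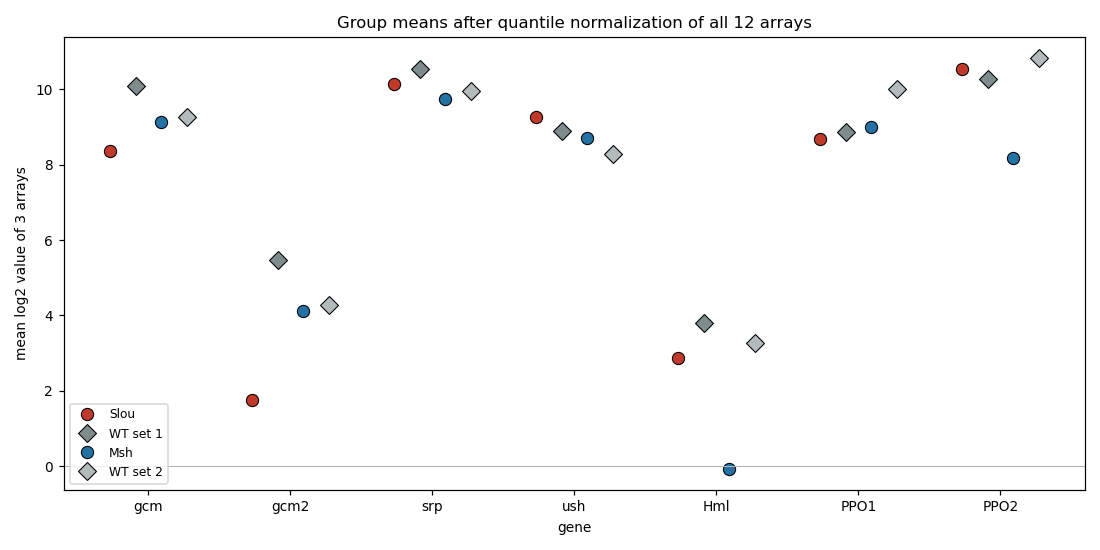
Mean log2 value of 3 arrays after quantile normalization of all 12 arrays (vertical axis) for 6 hemocyte genes and PPO2 in Slou, wild type set 1, Msh and wild type set 2. For gcm and gcm2 the Slou point is below both wild-type points, for Hml and PPO2 the Msh point is below both, and for PPO1 the Msh point at 9.01 lies between wild type set 1 at 8.87 and wild type set 2 at 10.01.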

How the data were processed

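Per the submitters' processing notes the arrays were processed with the R package affy; its version, the background correction, scaling and summary method are not given in the sources used here. The log2 values were deposited by the authors as 1 summary of each probe set on each array; base 2 is an inference from their range. Of 18952 probe sets, 183 controls were left out. Probe sets were named from the platform annotation (13647 with 1 gene, 402 with several, 4720 with none), and 13544 of them matched the fly naming table. Fits used limma 3.58.1 in R 4.3.3 with Benjamini-Hochberg adjustment: 6 arrays for each effect, 12 for the difference of effects. No label ties a gain of function to 1 of the wild-type sets, and the Msh arrays carry the same replicate number as wild type set 1. The set of each comparison was taken from the shared scale of the values. This choice decides whether PPO1 passes in Msh, and the signs of other hemocyte genes turn with it, as listed below. The tests were checked on simulated data with independent normal noise. That check does not cover scatter at the floor or the difference between the wild-type sets.

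The hemocyte genes and lists were chosen with earlier results of these data known. Named genes were all 10 hemocyte genes, slou and Dr, the 4 list genes of smallest p per list and comparison at most, and the 3 genes most like srp and Hml. NimC4, Sr-CII and the neighbours of gcm were picked with their values known. The 12 lists asked for 89 genes, of which 79 were measured. For a gene with several probe sets the one with the highest mean was used. Alternatives were fits of 12 arrays, an intensity trend, quantile normalization, a filter on dim probe sets, the replicate letter as a block, each array left out, and the other or both wild-type sets. Replicate letters did not pair arrays: deviations from group means of same-letter arrays correlated by -0.0143 to 0.0304. Arrays carry no depth, and their number limits the precision.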

Additional observations from a re-analysis of the deposited data

Results flagged for a closer look

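The effects of Slou and Msh differed for 4 hemocyte genes by the test of the difference over 12 arrays, in which 9.22% of all probe sets passed. The Slou effect minus the Msh effect was -1.61 for gcm, which fell in Slou (quantile-normalized means 8.36 in Slou and 9.13 in Msh). It was -3.03 for gcm2, which was lower in all 3 Slou arrays without passing in that comparison alone. It was 2.81 for Hml, a call that was lost after quantile normalization (limma adjusted p = 0.0637), with an intensity trend (0.0909) and in 9 of 12 fits that left out 1 array. It was 0.78 for PPO1, which fell in Msh against wild type set 2 and had a difference of 0.14 from wild type set 1 that did not pass (limma adjusted p = 0.373). PPO1 itself was 1.14 higher in wild type set 2 than in wild type set 1, and its quantile-normalized mean was 9.01 in Msh and 8.69 in Slou.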

How the results depend on the processing

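The number of calls depended strongly on the fit. In Slou, 434 probe sets and 1 hemocyte gene were called, against 1591 and 3 with a fit of 12 arrays, 2380 and 4 with an intensity trend, 1497 and 4 with dim probe sets left out, 3742 and 4 against the other wild-type set, and 2629 and 4 against both. In Msh, 1278 probe sets and 2 hemocyte genes were called, against 3621 with an intensity trend, 2592 with dim probe sets left out, 4220 against the other wild-type set, and 3101 and 4 against both. With the replicate letter as a block, limma called 0 probe sets and 0 hemocyte genes in either (2105 and 3479 probe sets at an unadjusted p under 0.05). Leaving out 1 array gave 0 to 49 probe sets and 0 hemocyte genes in Slou, 16 to 602 and 0 to 1 in Msh, and 1036 to 1412 for the difference of effects, which had 1730, and 2944 with an intensity trend. The 0 in Slou came without wild type set 1 replicate C (2436 at an unadjusted p under 0.05 by limma). Signs turned against the other wild-type set, for srp (0.18), crq (0.23) and Pvr (0.20) in Slou and for ush (-0.18), PPO1 (0.14), NimC1 (0.13), crq (-0.052) and Pvr (-0.14) in Msh, and against both sets for crq (0.094) and Pvr (0.084) in Slou and Pvr (-0.015) in Msh. With an array left out, the difference of effects was -0.12 to 0.073 for ush and -1.70 to 0.40 for NimC1. The cause was not tested.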

Other observations

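In the order of protein-coding genes in the naming table, gcm and gcm2 are separated by 2 genes, CG3841 and CG4382, whose Slou means were -0.14 and 1.17, against 1.83 and 2.14 in wild type set 1, and neither passed. Of 10 measured genes between the pair or among the 5 on either side, 2 were called in Slou, and both rose: Trx2, a thioredoxin gene, by 0.62 (SE 0.09, limma adjusted p = 0.0469) and Apoltp, the gene of a lipid transfer particle, by 2.32 (SE 0.10, limma adjusted p = 0.00511). The share of all probe sets called in Slou was 2.31%, and 1.24% were called higher. In Msh, Apoltp fell by 0.40 (SE 0.07, limma adjusted p = 0.0475). These genes were looked at after the values of gcm and gcm2 had been seen.

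Over the 12 arrays, with values centred within each scale, the genes most like srp by Pearson correlation were RN-tre (0.952), Dys (0.951) and Nrt (0.951), among 6189 candidate genes averaging at least 4 (6190 for Hml). Those most like Hml were CG17032 (0.970), mRpL18 (0.969) and Ald1 (0.967), which fell in Msh by 1.62, 0.98 and 1.22 on the log2 scale. The arrays of a group share these points' position, so the correlations are descriptions.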
